A study of Mus musculus with 12 samples.

Results

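Dlk1, Rtl1 and Dio3 are the 3 protein-coding genes of the imprinted Dlk1-Dio3 domain that are expressed from the paternal chromosome. Their read density was followed as 67 bins of 1 kb on mm10 chromosome 12, out of 2462755 autosomal bins in the deposited table. The bins were set by their position around the genes, and the members were chosen with earlier results of these data known. The Dlk1 window held 32 bins (chr12:109442001-109474000), the Rtl1 window 12 bins (chr12:109589001-109601000) and the Dio3 window 23 bins (chr12:110269001-110292000). The study measured by ChIP-seq, on formaldehyde-fixed chromatin digested with micrococcal nuclease, where GZF1 lies in the genome of mouse embryonic stem cells. GZF1 is a zinc finger protein with a BTB domain, and the study's title sets it beside ZFP57 and the imprinting of this domain.

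The 8 libraries of the table came from RGM cells, a cross of 129 and CAST mice, and from Cas9-GFP cells. RGM Gzf1-Flag anti-FLAG (clone 56) and Cas9 Gzf1-Flag anti-FLAG (clone 35) carried ectopic, overexpressed Gzf1-Flag, each in a single clone, and were precipitated with anti-FLAG M2. RGM wild type and Cas9 wild type were precipitated with anti-GZF1, which reads the endogenous protein. Cas9 Gzf1-KO and Cas9 control were also precipitated with anti-GZF1. Cas9 H3K27ac marked acetylated lysine 27 of histone H3, a mark of active promoters and enhancers, and Cas9 input was chromatin without antibody. The Cas9 input was the only one in the table, so RGM libraries have none of their own line. A further 4 of the 12 libraries of the series were not analysed here: a second RGM Gzf1-Flag anti-FLAG library, V65 Gzf1-Flag anti-FLAG, and the anti-FLAG libraries of RGM and V65 control cells. Each group analysed had 1 library in the table and so no replicate, and no test between libraries was run. ChIP reads do not show whether GZF1 protein was lost in the knockout cells.

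In this domain the paternal chromosome carries DNA methylation at the intergenic differentially methylated region (IG-DMR), which lies between Dlk1 and the noncoding RNA gene Meg3, and expresses the 3 protein genes. The maternal copy is unmethylated there and expresses Meg3 and a long run of noncoding RNAs and miRNAs. ZFP57 is known to bind methylated imprinting control regions through a short CpG-containing motif. Dlk1 encodes a transmembrane relative of the Notch ligands that restrains fat cell differentiation. Rtl1 derives from a retrotransposon and acts in the fetal capillaries of the placenta. Dio3 encodes the deiodinase that inactivates thyroid hormones. The reads of the table were not split by allele, so a density here is the sum over both parental copies.

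The libraries held 10087804 to 94184865 reads, with 3.93 reads per autosomal bin on average in Cas9 input, 8.61 in RGM wild type anti-GZF1, and 15.9 to 35.8 in the other 6. Density below is reads per bin divided by the autosomal mean of the same library, so 1 is the genome-wide average. Its interval is a 95% exact Poisson interval that covers counting error only. The H3K27ac library separated marker genes of cell types little: the bins at the ends of 10 stem cell genes had a median of 1.84, those of 6 fibroblast feeder genes 1.48, those of 6 genes of other differentiated cells 1.26, and those of all 20665 protein-coding genes 1.84.

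The promoters of Dlk1 and Dio3 are shown because the highest densities at both genes in the anti-FLAG and wild type anti-GZF1 libraries lay within about 1 kb of their start sites. The 250 bases before each start site are given 5′ to 3′ from RefSeq (GRCm38.p6, which shares its primary coordinates with mm10), with CpG pairs in capitals. They lie at chr12:109452573-109452822 on the + strand for Dlk1 and at chr12:110278980-110279229 on the + strand for Dio3. The promoter of Rtl1 was not analysed here.
Dlk1: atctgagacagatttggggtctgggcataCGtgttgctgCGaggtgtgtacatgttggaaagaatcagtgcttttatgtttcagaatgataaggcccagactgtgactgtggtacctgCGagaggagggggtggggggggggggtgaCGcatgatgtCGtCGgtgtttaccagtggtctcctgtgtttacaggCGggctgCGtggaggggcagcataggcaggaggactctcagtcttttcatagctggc
Dio3: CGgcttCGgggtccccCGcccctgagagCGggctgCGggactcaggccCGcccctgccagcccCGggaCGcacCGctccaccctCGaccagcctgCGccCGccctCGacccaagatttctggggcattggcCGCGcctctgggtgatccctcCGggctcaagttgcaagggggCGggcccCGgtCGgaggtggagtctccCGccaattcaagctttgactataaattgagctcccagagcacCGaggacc

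The Dlk1 stretch has 8 CpG pairs and the Dio3 stretch 21. Counting the 50 bases after the start as well, GC content was 54.8% at Dlk1 and 69.6% at Dio3, higher than in 57.2% and 89.9% of 31365 autosomal promoters. Dio3os, the noncoding gene that starts about 1 kb from Dio3 on the opposite strand, reached 82% GC, higher than 99.3% of promoters. Both strands of the 250 bases were searched for TGCCGC, the motif of ZFP57, and for TGCGCGT, the start of the published GZF1 consensus. Neither run of letters was in the stretches of Dlk1, Dio3 or Dio3os. The Dlk1 stretch ends before the Dlk1 bin of highest density (chr12:109453001-109454000). That bin was not searched, so the search cannot say whether it holds either motif. TGCCGC was in 8.69% and TGCGCGT in 2.23% of all promoters.

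The Rtl1 window lies inside the annotated Rtl1 gene (chr12:109564900-109604418), and 13 mature miRNAs from 7 hairpins lie within it, 11 of them on the + strand, opposite to Rtl1. In mice, several of these are known to pair fully with Rtl1 mRNA and to direct its cleavage. The Dio3 window holds both arms of miR-1247, beside the start of Dio3os, and the Dlk1 window holds none. All 15 seeds differ from each other. The miRNAs of the bins that stand out below are shown 5′ to 3′ from RefSeq, with the seed (bases 2 to 8) in capitals.
mmu-miR-431-5p: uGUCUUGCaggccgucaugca
mmu-miR-431-3p: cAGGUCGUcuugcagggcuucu
mmu-miR-433-5p: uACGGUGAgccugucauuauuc
mmu-miR-433-3p: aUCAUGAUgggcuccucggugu
mmu-miR-434-5p: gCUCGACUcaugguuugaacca
mmu-miR-434-3p: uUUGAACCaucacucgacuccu
mmu-miR-1247-5p: aCCCGUCCcguucguccccgga
mmu-miR-1247-3p: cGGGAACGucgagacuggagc

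The 3 windows differed in level. Dio3 was above the genome average in both anti-FLAG libraries and both wild type anti-GZF1 libraries, Dlk1 was moderately above it, and Rtl1 was above it in RGM cells but below it in Cas9 cells. For comparison, the 6 bins of the IG-DMR had 6.45 in RGM Gzf1-Flag anti-FLAG, 4.71 in Cas9 Gzf1-Flag anti-FLAG, 3.10 in RGM wild type anti-GZF1, 1.13 in Cas9 wild type anti-GZF1, 0.411 in Cas9 Gzf1-KO anti-GZF1, 1.69 in Cas9 control anti-GZF1, 0.779 in Cas9 H3K27ac and 0.212 in Cas9 input. It was higher than all 3 windows in both anti-FLAG libraries and in RGM wild type anti-GZF1, but not in Cas9 wild type anti-GZF1, where it lay between Rtl1 and Dlk1.

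The Dlk1 window had a density of 1.54 (1.46 to 1.62) in RGM Gzf1-Flag anti-FLAG, 1.09 (1.02 to 1.16) in Cas9 Gzf1-Flag anti-FLAG, 1.49 (1.35 to 1.64) in RGM wild type with anti-GZF1 and 1.26 (1.18 to 1.34) in Cas9 wild type anti-GZF1. It had 0.911 (0.855 to 0.971) in Cas9 Gzf1-KO anti-GZF1, 1.17 (1.1 to 1.23) in Cas9 control anti-GZF1, 0.961 (0.877 to 1.05) in Cas9 H3K27ac and 0.923 (0.763 to 1.11) in Cas9 input. The 2 RGM libraries were highest and their intervals overlapped each other but no Cas9 library. Cas9 wild type, Cas9 control, Cas9 Gzf1-Flag and H3K27ac followed, each overlapping its neighbour in that order. H3K27ac, the input and the knockout came last and overlapped each other. Of all autosomal windows of the same length, 86.0% were lower than Dlk1 in RGM Gzf1-Flag anti-FLAG and 35.8% in Cas9 Gzf1-KO.

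The Rtl1 window had 1.41 (1.28 to 1.55) in RGM Gzf1-Flag anti-FLAG, 0.784 (0.691 to 0.886) in Cas9 Gzf1-Flag anti-FLAG, 1.68 (1.44 to 1.95) in RGM wild type with anti-GZF1 and 0.799 (0.698 to 0.910) in Cas9 wild type anti-GZF1. It had 0.728 (0.647 to 0.817) in Cas9 Gzf1-KO anti-GZF1, 1.00 (0.907 to 1.1) in Cas9 control anti-GZF1, 0.714 (0.599 to 0.845) in Cas9 H3K27ac and 1.15 (0.867 to 1.5) in Cas9 input. Both RGM libraries lay above every Cas9 ChIP library with no overlap of intervals, and overlapped only each other and the wide interval of the input. Cas9 wild type, Cas9 Gzf1-Flag, Cas9 Gzf1-KO and H3K27ac formed the lower end and overlapped each other. Over the whole annotated gene of 41 bins the order of the 2 lines was the same, with 1.44 in RGM and 0.830 in Cas9 for anti-FLAG, and 1.33 in RGM and 0.767 in Cas9 for anti-GZF1.

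The Dio3 window had 2.0 (1.89 to 2.12) in RGM Gzf1-Flag anti-FLAG, 1.28 (1.20 to 1.37) in Cas9 Gzf1-Flag anti-FLAG, 2.22 (2.01 to 2.43) in RGM wild type with anti-GZF1 and 1.40 (1.31 to 1.51) in Cas9 wild type anti-GZF1. It had 1.02 (0.952 to 1.1) in Cas9 Gzf1-KO anti-GZF1, 1.19 (1.12 to 1.27) in Cas9 control anti-GZF1, 1.19 (1.08 to 1.31) in Cas9 H3K27ac and 1.13 (0.921 to 1.37) in Cas9 input. The RGM libraries were again highest and overlapped only each other. Cas9 wild type and Cas9 Gzf1-Flag came next and overlapped, and Cas9 Gzf1-KO was lowest, overlapping H3K27ac and input but not Cas9 control. Windows of this length were lower than Dio3 in 96.5% of cases in RGM Gzf1-Flag anti-FLAG and in 97.0% in RGM wild type anti-GZF1, against 76.9% in Cas9 Gzf1-Flag anti-FLAG and 80.3% in Cas9 wild type anti-GZF1.

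**Figure D1:**
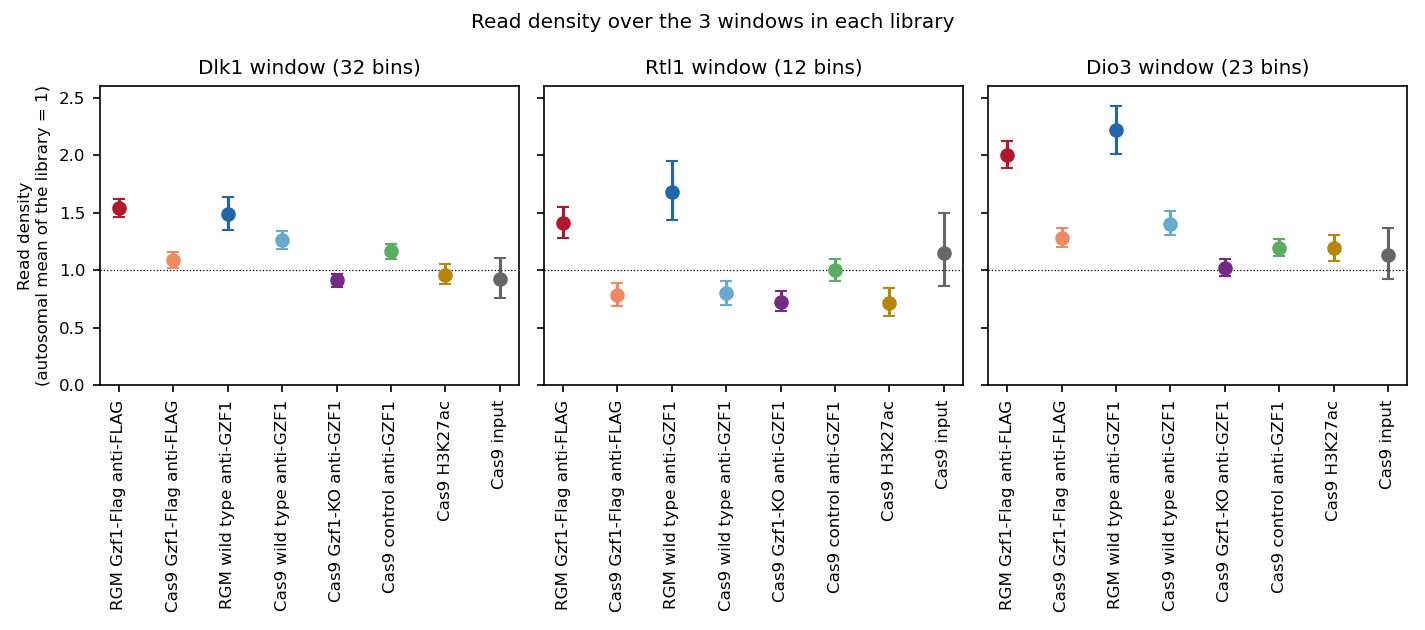
Read density of the 3 windows (vertical axis, autosomal mean of each library set to 1) in each of the 8 libraries (horizontal axis); points are the window value and bars its 95% exact Poisson interval, with no replicates. At Rtl1 the RGM libraries sit at 1.41 and 1.68 and the other libraries with an antibody between 0.714 and 1.00.

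Within the Dlk1 window the signal had a single main peak. The bin just after the start site (chr12:109453001-109454000, centre 0.677 kb downstream) was the highest of the 32 in both anti-FLAG libraries, both wild type anti-GZF1 libraries and H3K27ac. It reached 4.19 (110.8 reads) in RGM Gzf1-Flag anti-FLAG, 2.51 (68.2 reads) in Cas9 Gzf1-Flag anti-FLAG, 5.16 (44.4 reads) in RGM wild type anti-GZF1, 2.84 (67.05 reads) in Cas9 wild type anti-GZF1 and 2.71 (43 reads) in H3K27ac. The same bin had 1.30 in Cas9 Gzf1-KO, higher than 81.77% of autosomal bins, 1.63 in Cas9 control, higher than 95.18%, and 1.02 (4 reads) in the input, higher than 51.38%. The highest Dlk1 bin was elsewhere in Cas9 Gzf1-KO, at 1.48, and in Cas9 control, at 2.09. The bin that holds the start site itself had 2.19 in RGM Gzf1-Flag anti-FLAG, 1.06 in Cas9 Gzf1-Flag anti-FLAG, 3.13 in RGM wild type with anti-GZF1 and 2.29 in Cas9 wild type anti-GZF1, with only 0.378 in H3K27ac. The bins over the gene averaged 1.76 in RGM Gzf1-Flag anti-FLAG and 1.26 in Cas9 Gzf1-Flag anti-FLAG, and the 10 kb downstream 1.27 and 0.792 in those libraries.

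The Dio3 window peaked at the start of Dio3 and at the start of Dio3os next to it. The Dio3 start-site bin (chr12:110279001-110280000) had 4.26 in RGM Gzf1-Flag anti-FLAG, 3.17 in Cas9 Gzf1-Flag anti-FLAG, 6.61 in RGM wild type with anti-GZF1 and 2.77 in Cas9 wild type anti-GZF1. It had 0.95 in Cas9 Gzf1-KO, 1.69 in Cas9 control, 1.98 in H3K27ac and 2.55 (10 reads) in Cas9 input, so the input was high in this bin too. The neighbouring bin (chr12:110278001-110279000), which holds the start of Dio3os and miR-1247, had 3.69 in RGM Gzf1-Flag anti-FLAG, 1.39 in Cas9 Gzf1-Flag anti-FLAG, 7.01 in RGM wild type anti-GZF1, 2.46 in Cas9 wild type anti-GZF1, 0.405 in Cas9 Gzf1-KO, 0.755 in Cas9 control, 3.28 in H3K27ac and 0.764 (3 reads) in Cas9 input. It was the lowest of the 23 in Cas9 Gzf1-KO and the highest in H3K27ac and RGM wild type anti-GZF1. Cas9 wild type exceeded Cas9 control there 3.26-fold (95% interval 2.03 to 5.35), the largest such ratio of the 67 member bins. Cas9 Gzf1-Flag anti-FLAG, in contrast, had its highest bin at the Dio3 start site. Of the 67 member bins, 3 were 2-fold or more higher in Cas9 wild type than in Cas9 control (4.48%, against 5.36% of all bins). As many were 2-fold or more lower (4.48%, against 14.2%).

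Over the gene itself (3 bins) Dio3 had 3.33 (2.94 to 3.76) in RGM Gzf1-Flag anti-FLAG, 2.20 (1.89 to 2.54) in Cas9 Gzf1-Flag anti-FLAG, 4.02 (3.29 to 4.88) in RGM wild type with anti-GZF1 and 2.59 (2.22 to 2.99) in Cas9 wild type anti-GZF1. It had 1.23 (1.02 to 1.47) in Cas9 Gzf1-KO, 1.56 (1.33 to 1.81) in Cas9 control, 1.65 (1.30 to 2.05) in H3K27ac and 1.95 (1.24 to 2.93) in Cas9 input. Of 20665 protein-coding gene spans, 98.8% were lower in RGM Gzf1-Flag anti-FLAG, 94.2% in Cas9 Gzf1-Flag anti-FLAG, 97.9% in RGM wild type with anti-GZF1 and 94.3% in Cas9 wild type anti-GZF1. The input ranked this short, GC-rich gene above 84.5% of spans and Cas9 control above 93.0%. The GC content and the input level moved with this result, and their part in it was not tested.

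The Rtl1 window had no such peak. Its highest bin in both anti-FLAG libraries was the one with miR-431 (chr12:109590001-109591000), at 2.16 in RGM and 1.18 in Cas9 cells. In RGM wild type anti-GZF1 the highest bin had 2.56 (22 reads) and in Cas9 wild type anti-GZF1 1.57 (37 reads), in different places. The lowest bin in Cas9 Gzf1-Flag anti-FLAG was that of miR-434 (chr12:109594001-109595000), with 0.184 (5 reads), where RGM Gzf1-Flag anti-FLAG had 1.33 (35.15 reads). In Cas9 Gzf1-KO the lowest bin was that of miR-431, with 0.304 (10 reads), where Cas9 control had 1.11 (39.6 reads).

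**Figure D2:**
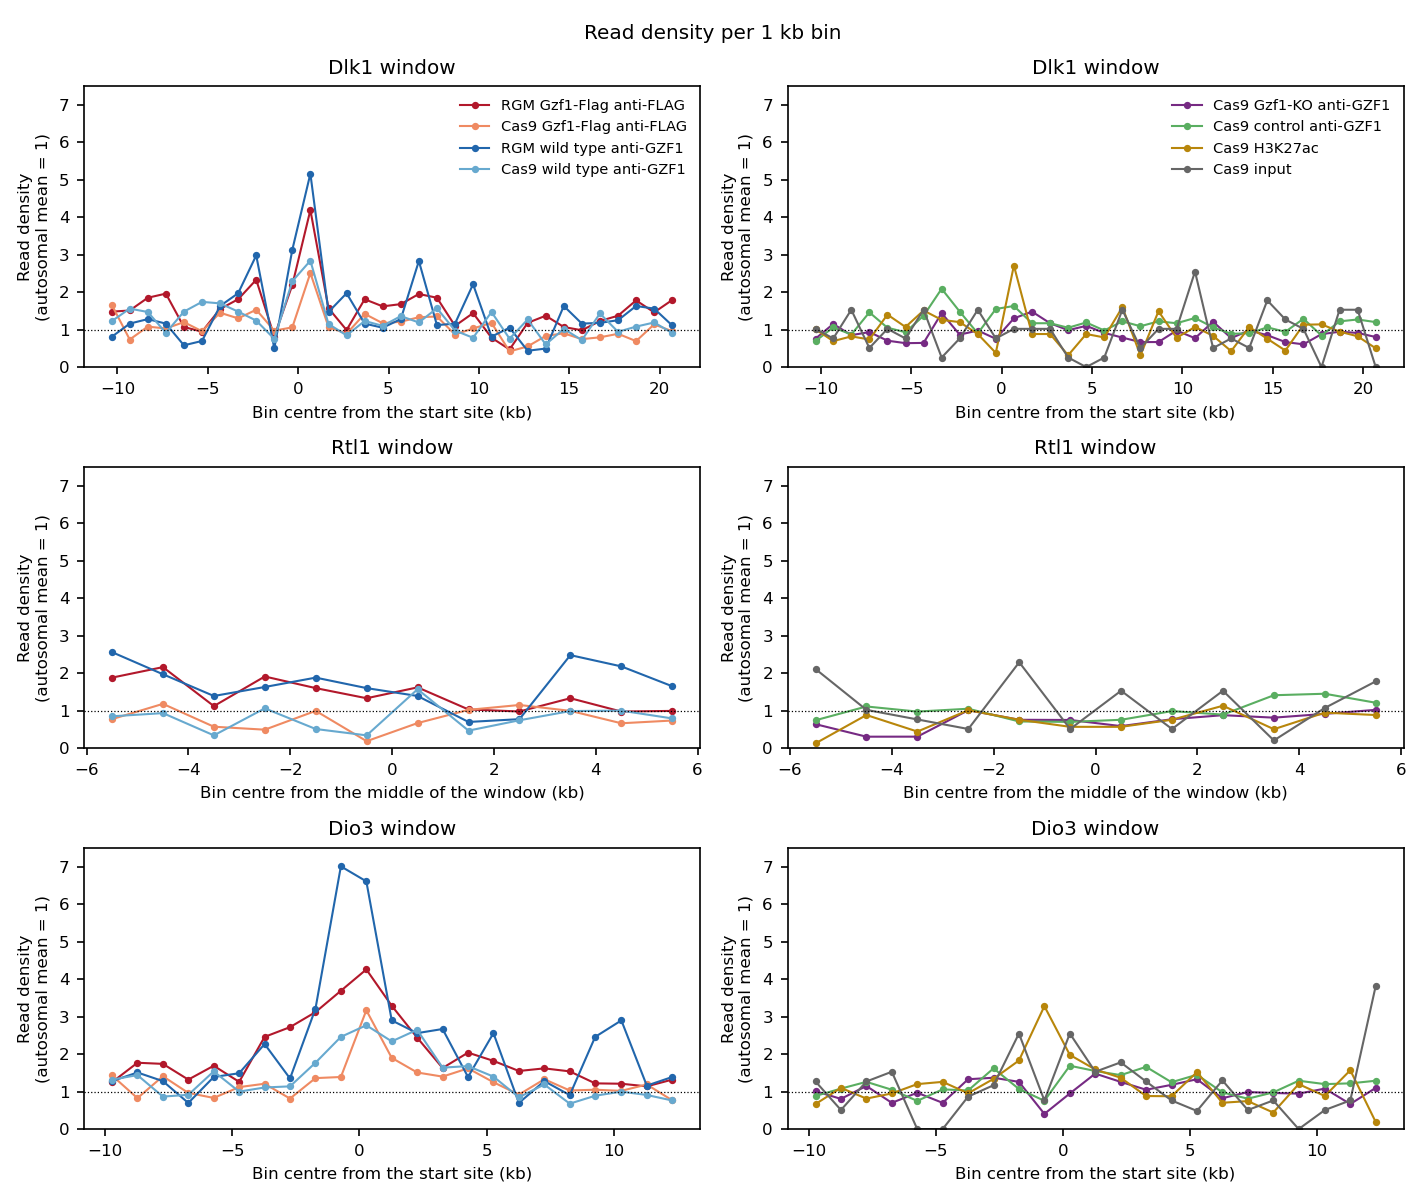
Read density per 1 kb bin (vertical axis, autosomal mean 1) against the distance of the bin centre in kb from the start site of Dlk1 and of Dio3, or from the middle of the Rtl1 window; left, the 4 libraries with anti-FLAG or wild type anti-GZF1, and right, knockout, control, H3K27ac and input. The left panels show 1 peak at Dlk1, up to 5.16, a broader one at Dio3, up to 7.01, and none at Rtl1.

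Across the bins of a window, which share libraries and base composition and are not replicates, RGM and Cas9 Gzf1-Flag anti-FLAG had a Pearson correlation of 0.77 at Dlk1 (32 bins), 0.061 at Rtl1 (12 bins) and 0.68 at Dio3 (23 bins). RGM and Cas9 wild type anti-GZF1 had 0.58 at Dlk1, 0.26 at Rtl1 and 0.75 at Dio3. The Spearman values with anti-FLAG were 0.55 at Dlk1, -0.014 at Rtl1 and 0.44 at Dio3. With anti-GZF1 they were 0.17 at Dlk1, 0.39 at Rtl1 and 0.70 at Dio3.

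Bins at a density of 2 or more were counted over the 67 member bins. There were 12 in RGM Gzf1-Flag anti-FLAG (17.9%, against 6.02% of all autosomal bins) and 2 in Cas9 Gzf1-Flag anti-FLAG (2.99%, against 4.17%). There were 18 in RGM wild type anti-GZF1 (26.9%, against 8.58%) and 6 in Cas9 wild type anti-GZF1 (8.96%, against 6.13%). Cas9 Gzf1-KO had 0 (background 1.23%) and Cas9 control 1 (1.49%, against 1.08%), which is near the background. H3K27ac had 2 (2.99%, against 6.04%) and the shallow input 6 (8.96%, against 13.4%). Dio3 held most of those in the RGM libraries, 8 of 12 with anti-FLAG and 10 of 18 with anti-GZF1, and Rtl1 held none in any Cas9 library with an antibody.

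Set among other promoters by the bin that holds the start site, Dlk1 lay near or below the middle and Dio3 above it. For Dlk1 this was not the peak bin, which is the next one downstream. The peak bin had 4.19 in RGM and 2.51 in Cas9 Gzf1-Flag anti-FLAG, and 5.16 in RGM and 2.84 in Cas9 wild type anti-GZF1. Median start-site bins of all promoters had 2.03, 1.75, 2.31 and 2.02, in that order. The start-site bin was at 2 or more in 50.7% of 31365 promoters in RGM Gzf1-Flag anti-FLAG, 42.2% in Cas9 Gzf1-Flag anti-FLAG, 54.2% in RGM wild type with anti-GZF1 and 50.2% in Cas9 wild type anti-GZF1, so a value of 2 is common at promoters. It was also at 2 or more in 42.3% in Cas9 input, 45.8% in H3K27ac, 18.3% in Cas9 Gzf1-KO and 17.7% in Cas9 control. Dlk1 was higher than 53.6% of promoters in RGM Gzf1-Flag anti-FLAG, 23.7% in Cas9 Gzf1-Flag anti-FLAG, 59.8% in RGM wild type with anti-GZF1 and 55.7% in Cas9 wild type anti-GZF1. Dio3 was higher than 89.6%, 87.1%, 88.8% and 64.4% in the same libraries, in that order.

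Against the 25% of promoters richest in GC, the place of Dio3 was lower. It exceeded 69.4% of them in RGM Gzf1-Flag anti-FLAG, 67.9% in Cas9 Gzf1-Flag anti-FLAG, 66.8% in RGM wild type with anti-GZF1 and 19.9% in Cas9 wild type anti-GZF1. The median of that class was 3.70 in RGM Gzf1-Flag anti-FLAG, 2.78 in Cas9 Gzf1-Flag anti-FLAG, 5.57 in RGM wild type anti-GZF1, 3.74 in Cas9 wild type anti-GZF1 and 2.80 in Cas9 input, and that of the 25% poorest in GC was 1.00, 1.01, 0.929, 0.976 and 1.02 in those libraries. The start-site bin of Dio3os exceeded 0.507% of all promoters in Cas9 Gzf1-KO, 8.74% in Cas9 control and 19.5% in Cas9 input, so it was low in all 3.

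**Figure D3:**
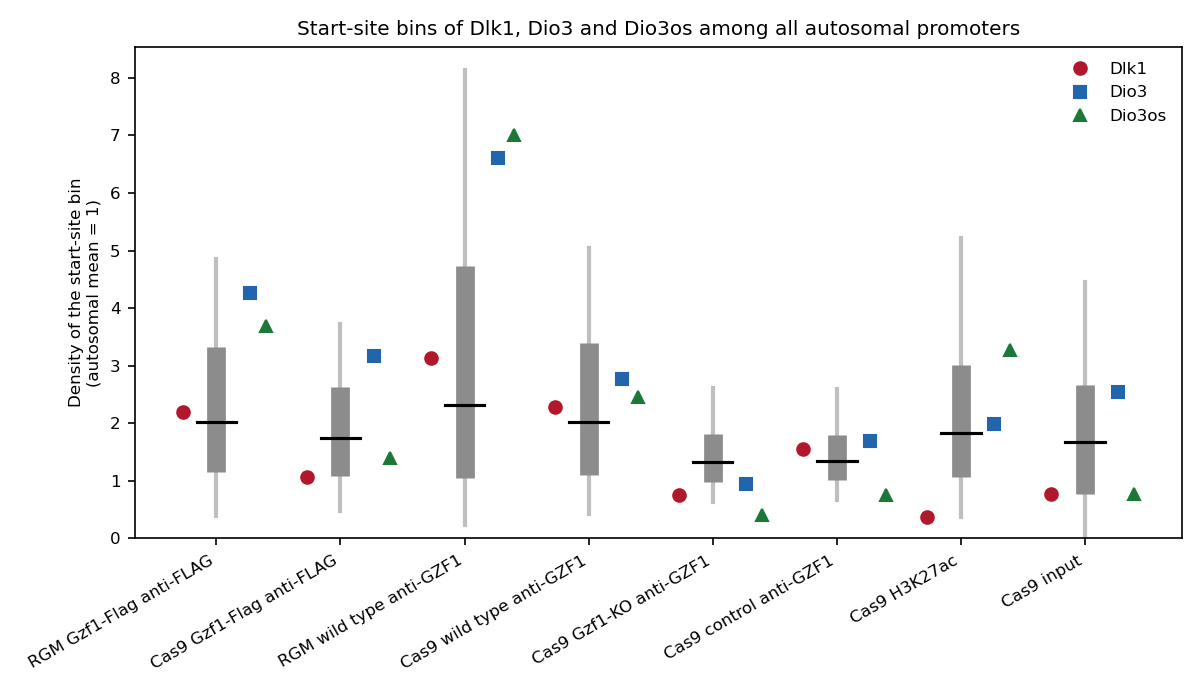
Density of the bin holding the start site (vertical axis, autosomal mean 1) in each library; thin lines run from the 5th to the 95th percentile of all autosomal promoters, thick lines from the 25th to the 75th, black ticks mark the median, and the symbols are single genes. Dio3 lies above the median promoter in the first 4 libraries, at 4.26, 3.17, 6.61 and 2.77.

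Whether the line changed these values was asked by setting RGM against Cas9 cells with the same antibody. At Rtl1 the RGM density was 1.80-fold (95% Clopper-Pearson interval 1.54 to 2.11) that of Cas9 cells with anti-FLAG and 2.11-fold (1.72 to 2.58) with anti-GZF1. Of all autosomal windows of 12 bins, 0.379% had a higher ratio with anti-FLAG and 0.128% with anti-GZF1, and 3.34% and 4.16% were 1.5-fold or more higher. At Dio3 RGM was 1.56-fold (1.43 to 1.71) with anti-FLAG and 1.58-fold (1.40 to 1.78; 1.47 without its highest bin) with anti-GZF1, where 2.39% and 2.23% of windows of 23 bins were 1.5-fold or more higher. At Dlk1 RGM was 1.41-fold (1.29 to 1.53) with anti-FLAG and 1.18-fold (1.05 to 1.33) with anti-GZF1, short of 1.5-fold, where 2.09% and 1.61% of windows of 32 bins passed it.

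The RGM excess was not limited to the genes. The 1 Mb around each window had an RGM to Cas9 ratio of 1.31 to 1.33 with anti-FLAG and 1.26 to 1.31 with anti-GZF1, against medians of 0.974 to 0.983 over all windows. Across the domain, all 92 blocks of 10 kb were higher in RGM with anti-FLAG, with a median of 1.38, and 81 of 92 with anti-GZF1, with a median of 1.33. Relative to its surroundings Rtl1 was still higher in RGM, 1.37-fold (1.18 to 1.61) with anti-FLAG and 1.67-fold (1.36 to 2.04) with anti-GZF1. Dio3 kept 1.18-fold (1.08 to 1.30) with anti-FLAG and 1.25-fold (1.11 to 1.41) with anti-GZF1. Dlk1 did not differ from its surroundings beyond counting error, at 1.06 (0.977 to 1.16) with anti-FLAG and 0.899 (0.799 to 1.01) with anti-GZF1. With no RGM input in the table, a difference between the genomes of the lines and a difference in precipitation cannot be told apart.

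The excess at Rtl1 extended past its window. The 10 kb before it had 1.74-fold (1.48 to 2.06) with anti-FLAG and 1.62-fold (1.26 to 2.07) with anti-GZF1, and the 10 kb after it 1.64-fold (1.39 to 1.94) and 1.74-fold (1.37 to 2.22). The neighbouring Meg3 gene, of which the 3′ end overlaps annotated Rtl1, had 1.56-fold (1.43 to 1.70) and 1.72-fold (1.52 to 1.95). The 5 bins with miRNAs in the Rtl1 window had 2.63-fold (2.04 to 3.44) with anti-FLAG and 1.88-fold (1.37 to 2.59) with anti-GZF1. The whole window had 1.80-fold and 2.11-fold, so these bins exceeded it only with anti-FLAG. They were grouped after values were seen and include the miR-434 bin, with 5 reads in Cas9 Gzf1-Flag anti-FLAG. No background share was computed for them.

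**Figure D4:**
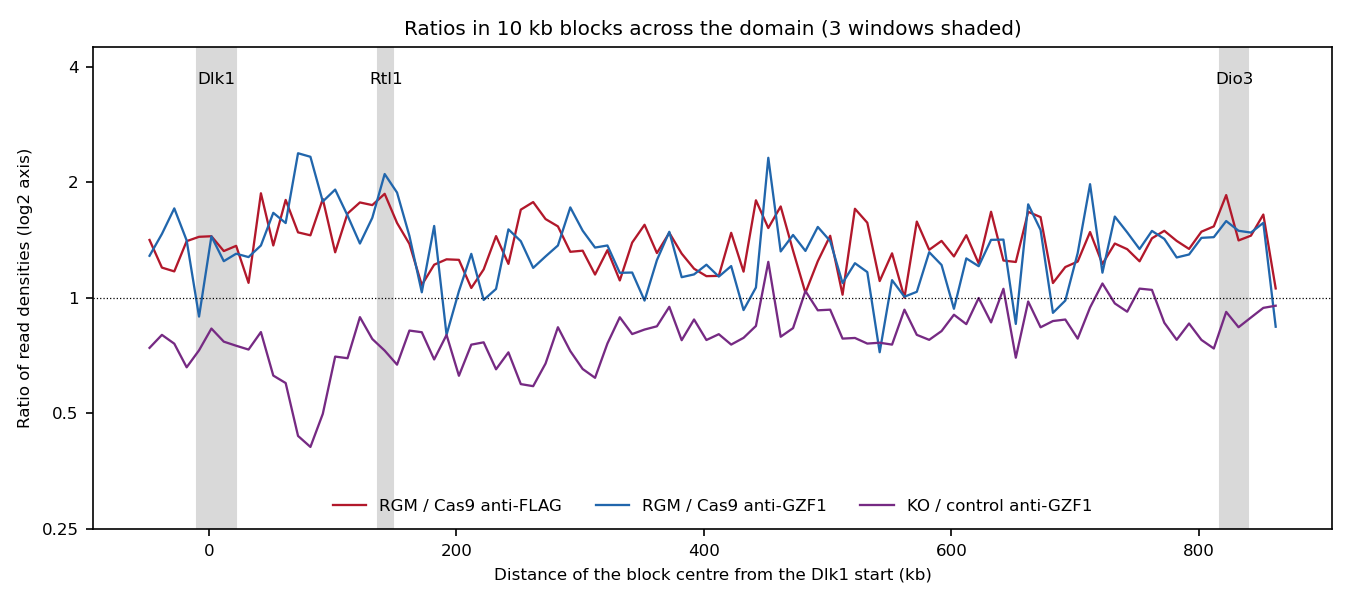
Ratio of read densities in 10 kb blocks (vertical log2 axis) against the distance of the block centre from the Dlk1 start in kb, for RGM against Cas9 with each antibody and for knockout against control; grey bands mark the 3 windows. The anti-FLAG line stays at or above 1 in all 92 blocks, and the knockout line is below 1 in 86 of 92, with its minimum of 0.409 between Dlk1 and Rtl1.

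Bin by bin, 11 of 12 Rtl1 bins were higher in RGM with each antibody. So were 27 of 32 Dlk1 bins and 21 of 23 Dio3 bins with anti-FLAG, and 17 of 32 and 17 of 23 with anti-GZF1. The share of all autosomal bins higher in RGM was not computed. Of the 67 member bins, 14 were 2-fold or more higher in RGM with anti-FLAG (20.9%, against 5.01% of bins) and 17 with anti-GZF1 (25.4%, against 8.98%). With anti-FLAG 4 of these lay at Dlk1, 4 at Rtl1 and 6 at Dio3, and with anti-GZF1 4 at Dlk1, 8 at Rtl1 and 5 at Dio3. Anti-GZF1 also gave 3 bins 2-fold or more lower in RGM, all at Dlk1 (4.48%, against 17.1%). All these counts are under autosomal scaling. The surrounding 1 Mb was itself at 1.31 to 1.33 with anti-FLAG and 1.26 to 1.31 with anti-GZF1. Bins were not counted relative to that level, so its part in the counts was not tested. The miR-434 bin had the largest ratio at Rtl1 with both antibodies, 7.23 (2.81 to 23.5) with anti-FLAG and 4.72 (1.88 to 13.2) with anti-GZF1, on 5 and 8 reads in the Cas9 libraries. At Dio3 the largest with anti-FLAG was 3.35 (2.06 to 5.70), in a bin within Dio3os, and with anti-GZF1 2.91 (1.56 to 5.22), in a bin 10 kb beyond the start. The 4 bins of Dio3os together were 2.51-fold (2.04 to 3.11) higher in RGM with anti-FLAG and 2.14-fold (1.66 to 2.72) with anti-GZF1, and the 3 bins of Dio3 1.52-fold (1.25 to 1.84) and 1.56-fold (1.21 to 1.99).

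Loss of Gzf1 was addressed with anti-GZF1 in Cas9 cells. All 3 windows were lower in knockout than in control, and none reached 1.5-fold. Dlk1 had 0.782 of the control (0.718 to 0.849), Rtl1 0.729 (0.626 to 0.849) and Dio3 0.860 (0.781 to 0.946). Windows 1.5-fold or more lower made up 0.375% of those of 32 bins, 0.864% of those of 12 bins and 0.49% of those of 23 bins. A still lower ratio was found in 4.58% of windows at the length of Dlk1, 2.75% at that of Rtl1 and 13.2% at that of Dio3. The surrounding 1 Mb was lower too, at 0.806 around Dlk1, 0.794 around Rtl1 and 0.889 around Dio3. Relative to it the windows had 0.969 (0.891 to 1.05), 0.918 (0.788 to 1.07) and 0.968 (0.879 to 1.06), all with intervals that include 1. Of the 92 blocks of 10 kb across the domain, 6 were above 1.

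Single bins gave a small number of larger differences. Of the 67 bins, 5 were 2-fold or more lower in the knockout (7.46%, against 2.87% of all bins). Both shares are under autosomal scaling, and the surrounding 1 Mb was itself at 0.806 around Dlk1, 0.794 around Rtl1 and 0.889 around Dio3. Bins were not counted relative to that level, so its part in the 5 was not tested. At Dlk1, 3 bins had 0.471 (0.265 to 0.791), 0.488 (0.295 to 0.806) and 0.471 (0.265 to 0.814) of the control, and the second of them holds the start site. At Rtl1 the 2 adjoining bins of miR-431 and miR-433 had 0.274 (0.121 to 0.553) and 0.313 (0.137 to 0.640). Both had few reads, 10 and 10.05 in the knockout against 39.6 and 34.85 in the control. At Dio3 the lowest ratio was in the Dio3os start bin, at 0.537 (0.248 to 1.05). Over the Dio3 gene the knockout had 0.790 (0.618 to 1.00) and over Dio3os 0.977 (0.775 to 1.23) of the control. Meg3 had 0.644 (0.589 to 0.704).

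The Cas9 wild type and Cas9 control libraries, neither of them labelled a knockout and both precipitated with anti-GZF1, were set against each other as a second comparison within the line. Wild type over control was 1.08 (0.992 to 1.17) at Dlk1, 0.799 (0.677 to 0.941) at Rtl1 and 1.18 (1.07 to 1.30) at Dio3. Over all windows of 12 bins, the 5th to 95th percentiles of this ratio ran from 0.496 to 1.61, while those of knockout over control ran from 0.768 to 1.31. Relative to the surrounding 1 Mb, wild type over control was 1.36 (1.25 to 1.47) at Dlk1, 1.05 (0.893 to 1.24) at Rtl1 and 1.30 (1.18 to 1.43) at Dio3.

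**Figure D5:**
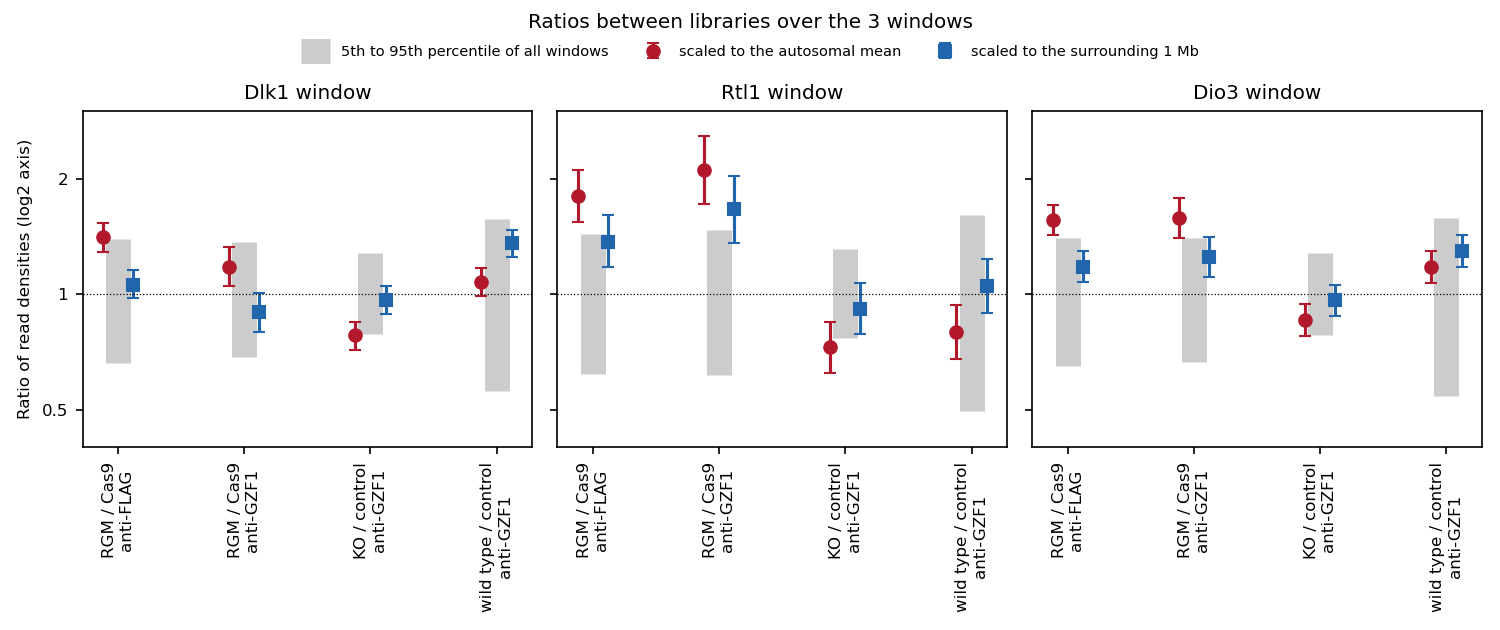
Ratios of read density between libraries (vertical log2 axis) for the 3 windows; circles are scaled to the autosomal mean, squares to the surrounding 1 Mb, bars are 95% Clopper-Pearson intervals, and grey bars span the 5th to 95th percentile of all autosomal windows of that length under the autosomal scaling. Rtl1 lies above the grey bar in both RGM to Cas9 ratios, at 1.80 and 2.11, and the knockout ratios move towards 1 (0.969, 0.918 and 0.968) under the local scaling.

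Against chromatin without antibody in the same Cas9 line, Rtl1 had lower densities with each antibody, while of the ratios at Dlk1 and Dio3 only those with anti-GZF1 had intervals above 1. Rtl1 had 0.680 (0.508 to 0.936) of the input in Cas9 Gzf1-Flag anti-FLAG, 0.693 (0.516 to 0.956) in Cas9 wild type anti-GZF1 and 0.619 (0.451 to 0.870) in H3K27ac. Of the windows of 12 bins, 2.45%, 4.41% and 4.2% were 1.5-fold or more lower in those comparisons, and Rtl1 passed that fold with H3K27ac. That side of the line depended on the setting: H3K27ac was at 0.685 under scaling to the surrounding 1 Mb and at 0.751 with 10 kb on each side, short of it, while under scaling to the autosomal median anti-FLAG was at 0.589 and anti-GZF1 at 0.626, past it. Dlk1 had 1.18 (0.974 to 1.45) of the input with anti-FLAG, 1.36 (1.12 to 1.67) with anti-GZF1 and 1.04 (0.848 to 1.29) with H3K27ac. Dio3 had 1.14 (0.923 to 1.41), 1.24 (1.01 to 1.54) and 1.05 (0.846 to 1.32) in the same order. Scaled to the autosomal median, H3K27ac over input was 0.911 at Dlk1 and 0.922 at Dio3, and anti-FLAG over input 0.983 at Dio3, so the side of 1 on which those 3 ratios lay depended on the scaling. Under the same scaling, anti-GZF1 over input at Dio3 was 1.12 (0.913 to 1.4), an interval that includes 1. Over the Dlk1 gene alone, anti-FLAG over input was 1.38 (1.01 to 1.94), an interval above 1. The input held 116 reads at Dlk1, 54.3 at Rtl1 and 102 at Dio3, which sets the width of these intervals. The 3 comparisons share that input and are not independent of each other.

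Tagged and endogenous protein were then compared within each line. The ratio of anti-FLAG to anti-GZF1 density was 1.03 in RGM and 0.867 in Cas9 cells at Dlk1, 0.837 and 0.982 at Rtl1, and 0.904 and 0.913 at Dio3. At the IG-DMR the same densities were 6.45 against 3.10 in RGM and 4.71 against 1.13 in Cas9 cells.

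Genes of the same pathway or origin gave a scale for these levels. Of 12 Notch ligands and receptors, 9 had a gene density of 1.5 or more in RGM Gzf1-Flag anti-FLAG (47.1% of all protein-coding genes did), 6 in Cas9 Gzf1-Flag anti-FLAG (39.8%), 10 in RGM wild type with anti-GZF1 (50.3%) and 8 in Cas9 wild type anti-GZF1 (47.2%). Dll3, a ligand-like protein of somite segmentation, was highest with 2.59, 2.32, 3.50 and 2.71 in those libraries. The list's medians of 2.27, 1.46, 2.42 and 1.74 were each above Dlk1, which had 1.76, 1.26, 1.95 and 1.40. Cas9 input also had 6 of the 12 at 1.5 or more (41.7% of all protein-coding genes). Its median was 1.45, with 2.41 at Dll3 and 0.913 at Dlk1, so the list was near its input level in Cas9 Gzf1-Flag anti-FLAG.

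Of 11 genes that carry, convert or read thyroid hormone, 3 were at 1.5 or more in RGM Gzf1-Flag anti-FLAG (47.1% of all protein-coding genes were). There were 4 in Cas9 Gzf1-Flag anti-FLAG (39.8%), 3 in RGM wild type with anti-GZF1 (50.3%) and 3 in Cas9 wild type anti-GZF1 (47.2%). Dio3 was the highest of the list in all 4 of these libraries. Its relatives Dio1 and Dio2, which can activate the hormone, had 1.37 and 0.971 in RGM Gzf1-Flag anti-FLAG and 1.54 and 0.948 in Cas9 Gzf1-Flag anti-FLAG. Thra, a thyroid hormone receptor, came closest to Dio3, at 2.30 in RGM Gzf1-Flag anti-FLAG and 2.01 in Cas9 Gzf1-Flag anti-FLAG. Cas9 input had 4 of the 11 at 1.5 or more (41.7% of all protein-coding genes), with 2.02 at Thra, 1.95 at Dio3, 1.69 at Dio1 and 0.716 at Dio2. Median densities of the list, 1.35, 1.38, 1.27 and 1.36, were near those of all protein-coding genes, 1.46, 1.37, 1.51 and 1.45.

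Of 8 autosomal genes derived from retrotransposons, 7 were at 1.5 or more in RGM Gzf1-Flag anti-FLAG (47.1% of all protein-coding genes) and in RGM wild type with anti-GZF1 (50.3%), and 6 in Cas9 Gzf1-Flag anti-FLAG (39.8%) and in Cas9 wild type anti-GZF1 (47.2%). The input had 6 of 8 there too, and the list's median of 2.04 in the input lay between 1.67 in Cas9 Gzf1-Flag anti-FLAG and 2.16 in Cas9 wild type anti-GZF1. Rtl1 over its annotated span was the lowest of the 8 in all 8 libraries, input included. Peg10, another imprinted gene of this origin that is expressed from the paternal copy, had 2.61 in RGM Gzf1-Flag anti-FLAG and 1.94 in Cas9 Gzf1-Flag anti-FLAG. Of 13 paternally expressed imprinted protein genes elsewhere, 9 were at 1.5 or more with anti-FLAG in each line (47.1% of all protein-coding genes in RGM, 39.8% in Cas9 cells). With wild type anti-GZF1 there were 10 in each line (50.3% in RGM, 47.2% in Cas9 cells), against 7 in the input (41.7%). Zrsr1 was highest with anti-FLAG (3.14 in RGM and 4.09 in Cas9 cells) and Ndn with anti-GZF1 (3.19 in RGM and 2.84 in Cas9 cells), and Snrpn was lowest with each. All 6 neighbours of the domain were at 1.5 or more in both RGM libraries (47.1% of all protein-coding genes with anti-FLAG, 50.3% with anti-GZF1). Begain was highest of them at 2.03 and 2.34. With the same antibodies in Cas9 cells 0 of 6 were (39.8% and 47.2%).

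The genes whose densities over the 8 libraries were most like each member were sought among 17318 autosomal genes outside the domain, by Euclidean distance of log2 density. For Dlk1 they were Clec4f (distance 0.210, against a median of 1.47 for all genes), Asb2, Gm52523, Osr1 and Noxa1. For the Rtl1 window they were 1700012A03Rik (0.577, median 2.05), Trpm2, Prima1, Cym and Pla2g4e. For Dio3 they were Cyp26b1 (0.353, median 2.13), Kiss1r, Evx1, Cstb and Amn. Cyp26b1 had 3.31 in RGM Gzf1-Flag anti-FLAG and 2.03 in Cas9 Gzf1-Flag anti-FLAG, close to the 3.33 and 2.20 of Dio3.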

How the data were processed

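ChIP-seq reads per 1 kb bin of 8 libraries, 1 per group, were analysed. The authors used cutadapt, Bowtie2 2.5.4, SAMtools and deepTools with mm10, per the submitters' processing notes. The deposited values are estimated counts (expected counts) not scaled to depth: all are multiples of 0.05, as when a read crossing a bin edge is split. How duplicates and poorly mapped reads were treated is not given in the sources used here, and reads are not independent molecules.

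Each library was divided by its autosomal mean. Levels carry 95% exact Poisson intervals and ratios Clopper-Pearson intervals on reads rounded to whole numbers (Python 3.11.15, scipy 1.17.1). The ratio intervals were tried on simulated Poisson counts, the spread they assume. That trial cannot show whether they hold for the reads of these libraries. Background percentages are over all autosomal windows of equal length, or bins with 10 or more reads in both libraries together. Deeper libraries give narrower intervals, and 0 reads allow up to 3. Named are all 3 members, the highest and lowest bins, bins with gene ends and the largest ratios, list extremes, and the 5 most alike genes (3 or more bins, 20 or more reads in every library). Rtl1 miRNA bins, Dio3os and all bins past 2-fold were added after values were seen. Members and gene lists were chosen with earlier results of these data known. Alternatives were other scalings, thresholds, gene spans and an input filter.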

Additional observations from a re-analysis of the deposited data

How the results depend on the processing

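Of 129 alternative values, 101 differed from the reported one by less than its counting interval, or for counts by less than 1.5 times, 26 moved by more and 2 reversed. Of the 105 ratios among them, 9 crossed 1, 6 of these within the interval, and 14 changed sides of the 1.5-fold line. Those within the interval that crossed 1 were H3K27ac over input at Dlk1 (0.911 scaled to the autosomal median, 0.983 without the highest bin, 0.955 with an input filter) and at Dio3 (0.922 and 0.954 under the first 2 of these), and anti-FLAG over input at Dio3 (0.983 under the first). At Rtl1, anti-FLAG over input passed the 1.5-fold line under these 3 settings (0.589, 0.642 and 0.618), as did anti-GZF1 over input (0.626, 0.651 and 0.631), and H3K27ac over input fell short of it with 10 kb on each side (0.751) or scaled to the surrounding 1 Mb (0.685). Without its highest bin, Dio3 fell short in RGM over Cas9 anti-GZF1 (1.47). Scaled to the surrounding 1 Mb, knockout over control became 0.969 at Dlk1, 0.918 at Rtl1 and 0.968 at Dio3; RGM over Cas9 anti-FLAG 1.06, 1.37 and 1.18; RGM over Cas9 anti-GZF1 0.899 (reversed), 1.67 and 1.25; and wild type over control 1.36 at Dlk1 and 1.05 (reversed) at Rtl1. Over the gene alone, RGM over Cas9 anti-GZF1 was 1.39 and anti-GZF1 over input 1.53 at Dlk1, and at Dio3 H3K27ac over input was 0.844 and wild type over control 1.66. The cause of these shifts was not tested.

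Member bins at a density of 1.5 or more numbered 37 in RGM Gzf1-Flag anti-FLAG, 7 in Cas9 Gzf1-Flag anti-FLAG, 30 in RGM wild type anti-GZF1, 15 in Cas9 wild type anti-GZF1, 7 in Cas9 control, 9 in H3K27ac and 19 in input, and at 3 or more 5, 1, 5, 0, 0, 1 and 1. The shares of all autosomal bins at 1.5 and at 3 were not computed. These counts therefore show only how far the threshold moved them, not whether they exceed the genome. No paired analysis was possible because each group analysed has 1 library in the table. The input, at 3.93 reads per bin, limits every comparison with it, and no spread between replicates can be given.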
